A study of Homo sapiens with 18 samples.

Results

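IVNS1ABP, a gene on chromosome 1 (ENSG00000116679, chr1:185296388-185317329 on GRCh38, minus strand), was described through all of its transcripts. The deposited table names 9 of its 145326 transcripts IVNS1ABP, and these 9 are the members described here. The gene was chosen by its values in these samples, because its transcript ENST00000367498 was lower at 8 h than at 0 h in both cell lines, so every difference between times in its transcripts is a description, given with no test.

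Spheroidal aggregates of 2 established human brain cancer cell lines, U87 mg (glioblastoma) and DAOY (desmoplastic cerebellar medulloblastoma), were embedded in Matrigel channels, where they invade outward from their center, and put under a direct current electrical field of 250 V/m. Each line was sampled after 0, 2 or 8 h of field, with 3 samples in each of the 6 groups and 18 samples in all. The 0 h samples received no field but had the same Matrigel channel as the others, and each sample pooled several channels. The 18 samples include no channels left without field for 2 or 8 h, so the effects of the field and of the added hours in culture cannot be told apart. The labels name no engineered change in either line, and each group is 1 cell line, not several tumors. For some experiments the paper used U87 mg cells carrying GFP, and it does not state whether such cells were sequenced. Polyadenylated RNA was sequenced, and in such bulk samples fewer cells with a transcript and less of it per cell cannot be told apart. The total estimated count was between 8341976 and 15610886 per sample, with a median of 10269092, and that of IVNS1ABP between 1114 and 2906. Of 8 glial markers 4 had a median TPM (a transcript level corrected for length and sequencing depth) over 1 in U87 mg, with GFAP at 0.958, and 3 did in DAOY. Of 8 cerebellar markers 5 did in DAOY, with ATOH1 at 0 in every sample, and 4 did in U87 mg, so these counts do not set the lines apart. Levels of some markers did: CD44 was between 2565 and 3547 TPM in U87 mg and between 885 and 1533 in DAOY. VIM and NES were also higher in every U87 mg sample, and OTX2 (0 in U87 mg, 1.15 to 2.44 in DAOY) in every DAOY sample. Against their lists, GLI2 was higher in every U87 mg sample and AQP4 in every DAOY sample. The ranges of the other glial and cerebellar markers overlapped.

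IVNS1ABP encodes the influenza virus NS1A binding protein, also called NS1-BP or KLHL39. It has a BTB domain, through which proteins of this kind pair and bind the ubiquitin ligase scaffold CUL3, and kelch repeats, which form a propeller that binds partners. The protein was found through its binding to NS1 of influenza virus, sits in the nucleus where splicing factors gather, takes part with HNRNPK in the splicing of a viral RNA and in the export of RNA through NXF1, and also binds actin filaments. A gene's transcripts can differ in whether they hold a full reading frame: a transcript with an early stop codon does not encode the whole protein, and one with an intron left in may not.

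Of the 9 transcripts, 3 are annotated as protein coding, 4 as retained intron and 2 as processed transcript, a class with no annotated reading frame. IVNS1ABP-202 (ENST00000367498, 15 exons, 4199 nt) is the form that encodes all 642 residues. IVNS1ABP-204 (ENST00000459929, 16 exons, 3657 nt) has the same exons plus 1 extra exon of 141 nt, which lies at chr1:185306485-185306625 in the intron between exons 7 and 8 of IVNS1ABP-202 and has a length that is a multiple of 3. At its ends IVNS1ABP-204 is shorter by 56 nt on the 5′ side and 627 nt on the 3′ side. Read from the start codon of IVNS1ABP-202, the frame of IVNS1ABP-204 meets its first stop at base 7 of that exon and is left with 221 residues, with 8 exon junctions downstream of the stop. The extra exon holds 4 stop codons in this frame. Its sequence is shown because it separates the full-length form from IVNS1ABP-204, with the first in-frame stop in capitals:
extra exon of IVNS1ABP-204: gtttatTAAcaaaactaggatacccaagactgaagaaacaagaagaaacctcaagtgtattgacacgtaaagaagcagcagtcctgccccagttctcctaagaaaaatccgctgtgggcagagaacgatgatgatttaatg

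IVNS1ABP-207 (ENST00000480769, retained intron, 8 exons, 3776 nt) begins in the last 16 nt of the same extra exon and then runs on through the 841 nt of intron that follow, up to exon 8 of IVNS1ABP-202. The 3 transcripts thus enter the same exon from 3 different sequences, and the 20 bases before that exon, in lower case, are what a read needs to tell them apart at this point. The 20 bases in capitals are the start of the shared exon:
IVNS1ABP-202: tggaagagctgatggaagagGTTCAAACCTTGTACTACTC
IVNS1ABP-204: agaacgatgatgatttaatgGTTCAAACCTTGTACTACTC
IVNS1ABP-207: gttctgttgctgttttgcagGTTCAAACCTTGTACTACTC

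IVNS1ABP-206 (ENST00000475046, retained intron, 6 exons, 1816 nt) keeps the 237-nt intron between exons 9 and 10 of IVNS1ABP-202. IVNS1ABP-209 also keeps this intron and IVNS1ABP-208 holds the end of it, so reads there are not particular to IVNS1ABP-206. IVNS1ABP-206 begins 151 nt upstream of exon 9. Its entry into exon 10, in capitals, is printed under that of IVNS1ABP-202 for comparison:
IVNS1ABP-202: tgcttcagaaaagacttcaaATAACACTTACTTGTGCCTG
IVNS1ABP-206: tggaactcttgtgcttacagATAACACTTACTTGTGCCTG

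All these sequences were read from the GENCODE 29 transcripts on GRCh38, and no other gene overlaps the locus. The other 5 transcripts are short or partial. They comprise the retained introns IVNS1ABP-205 and IVNS1ABP-208, the processed transcript IVNS1ABP-209, and IVNS1ABP-201 and IVNS1ABP-203, which are annotated as coding for 135 and 117 residues.

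**Figure D1:**
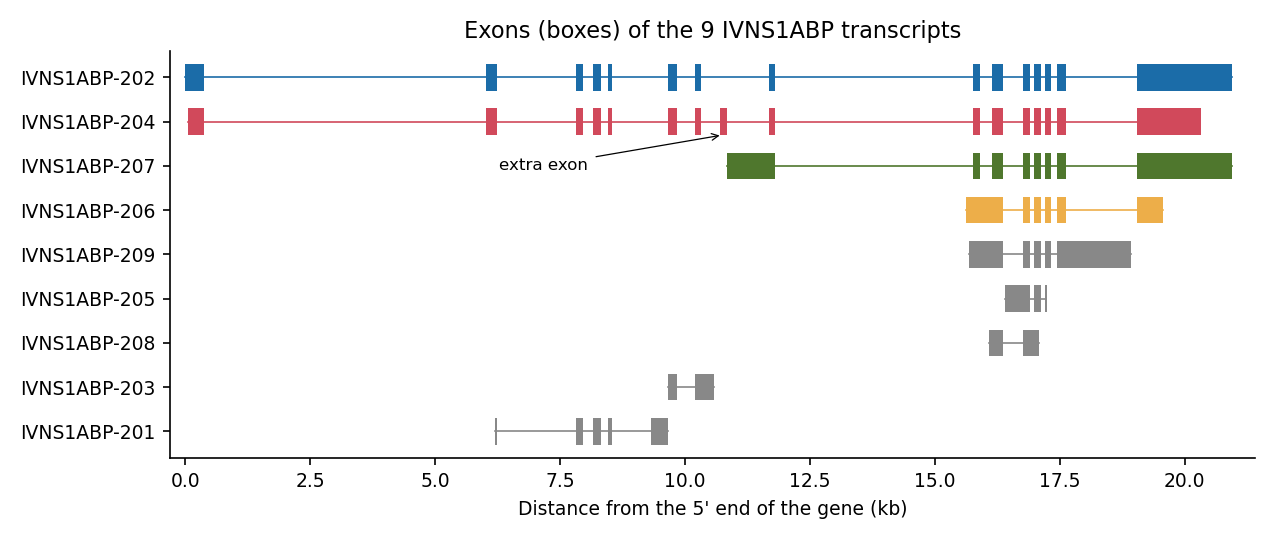
Exons (boxes) of the 9 IVNS1ABP transcripts against the distance from the 5′ end of the gene in kb. IVNS1ABP-204 differs from IVNS1ABP-202 by 1 extra exon between exons 7 and 8, in which IVNS1ABP-207 begins, and by shorter ends on both sides. The 5 transcripts in gray were found at no more than 7.62 estimated counts in any sample.

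Transcripts that share most of their exons are told apart by few reads. Of the 31-base words in IVNS1ABP-202, 1.94% occur in no other IVNS1ABP transcript, against 4.60% for IVNS1ABP-204, 4.26% for IVNS1ABP-206 and 22.8% for IVNS1ABP-207. The split of counts between IVNS1ABP-202, IVNS1ABP-204 and IVNS1ABP-206 is therefore an estimate resting on few bases, while IVNS1ABP-207 has 855 words of its own. Those words lie in the 841 nt of kept intron or at its edges, which RNA with this intron not yet spliced would also hold. Only IVNS1ABP-202 and IVNS1ABP-207 hold the last 627 nt at the 3′ end, so their estimates are not independent of each other. Only 4 of the 9 members, namely these 4, passed the filter on low counts, in the fit of all samples and in that of each line. Together they held between 93.4% and 99.9% of the gene's TPM in each sample. The other 5 members had no more than 7.62 estimated counts in any sample, and IVNS1ABP-205 was above 0 in 1 of 18 samples.

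IVNS1ABP-202, the full-length coding form, was lower at 8 h in both lines. In U87 mg its TPM was 37.9, 18.3 and 34.8 at 0 h, 32.1, 23.5 and 27.9 at 2 h, and 9.88, 6.31 and 9.54 at 8 h. All 3 samples at 8 h were below all samples at 0 h and 2 h, and 1 sample at 0 h lay well below the other two. The mean was 30.3 ± 10.5 (SD, n = 3) at 0 h and 8.58 ± 1.97 at 8 h, a ratio of 3.53. In DAOY the TPM was 34.3, 38.5 and 34.3 at 0 h, 21.6, 28.8 and 24.2 at 2 h, and 5.00, 1.75 and 3.02 at 8 h. The 3 groups did not overlap in DAOY, and each later group lay below the earlier one. The mean was 35.7 ± 2.45 at 0 h, 24.8 ± 3.63 at 2 h and 3.26 ± 1.64 at 8 h, so that the level at 0 h was 11.0 times that at 8 h. In DAOY at 8 h these levels rested on 142.6, 43.9 and 79.4 estimated counts. The log2 difference between 8 h and 0 h from the count fit was -1.78 ± 0.43 (SE) in U87 mg and -3.44 ± 0.41 in DAOY. This SE was taken from the spread of the samples within the 2 groups, not from the fit. For background, every 8 h sample was lower than every 0 h sample for 7.4% of all transcripts that passed the filter in U87 mg and for 10.1% in DAOY. At 2 h in DAOY that share was 3.85%. The shares with 8 h below 2 h, or with all 3 groups in order, were not computed.

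**Figure D2:**
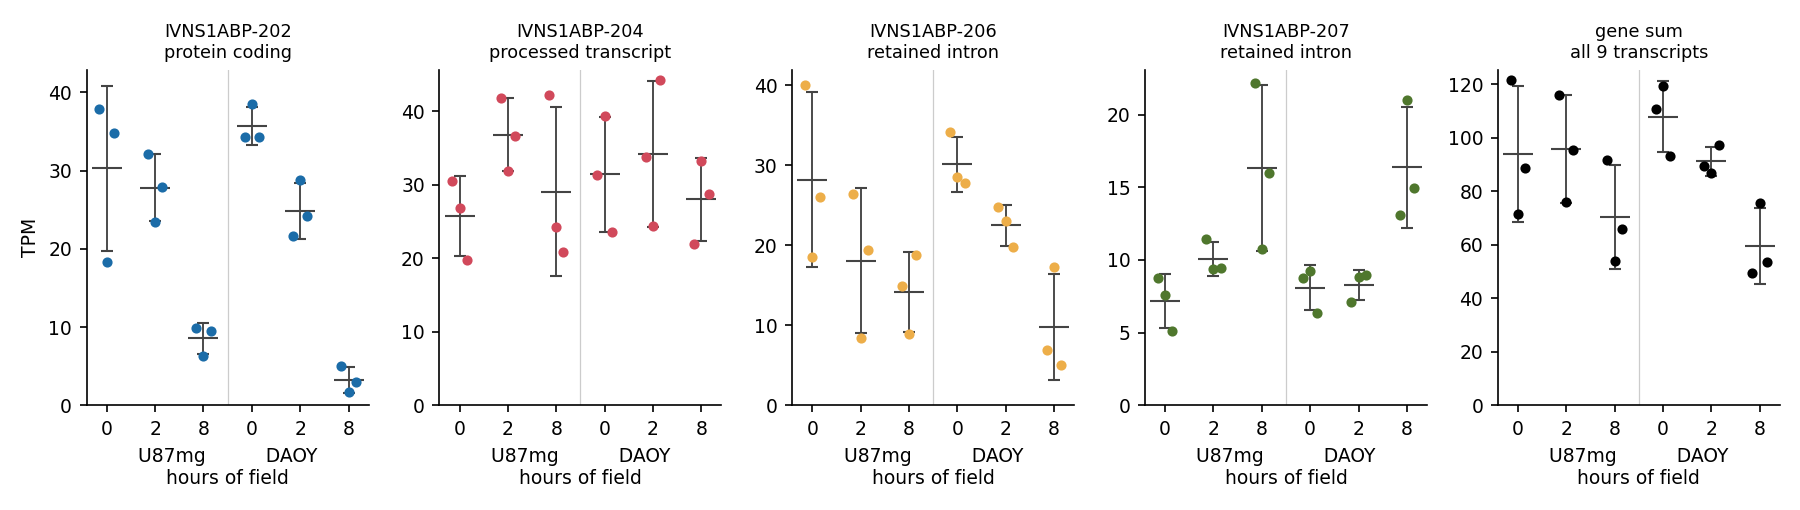
TPM of the 4 main IVNS1ABP transcripts and of the sum of all 9 (5 panels, each with its own axis from 0), by hours of field in U87 mg (U87mg, left of the line) and DAOY (right). Points are samples and bars are the mean ± SD of 3 samples: the mean of IVNS1ABP-202 is lowest and that of IVNS1ABP-207 highest at 8 h in both lines, while the groups of IVNS1ABP-204 overlap at 0 h and 8 h.

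IVNS1ABP-204, the form with the extra exon, did not follow IVNS1ABP-202. In U87 mg its TPM was 30.6, 26.9 and 19.8 at 0 h, 41.9, 31.9 and 36.7 at 2 h, and 42.2, 24.3 and 20.8 at 8 h. Samples at 2 h were all above those at 0 h, as they were for 7.65% of all transcripts, and samples at 8 h spanned the range of both. In DAOY its TPM was 31.4, 39.4 and 23.6 at 0 h, 33.9, 24.4 and 44.3 at 2 h, and 22.0, 33.3 and 28.8 at 8 h. The DAOY groups overlapped at all times. The log2 difference between 8 h and 0 h was 0.23 ± 0.38 in U87 mg and -0.14 ± 0.31 in DAOY, each smaller than its standard error. Over all 18 samples IVNS1ABP-204 had the highest mean TPM of the 9 transcripts, at 30.9, against 21.8 for IVNS1ABP-202, but at 0 h its mean was below that of IVNS1ABP-202 in both lines (25.8 against 30.3 in U87 mg and 31.4 against 35.7 in DAOY).

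IVNS1ABP-207, which begins in the extra exon and keeps the intron behind it, was higher at 8 h in both lines. In U87 mg its TPM was 8.73, 7.60 and 5.11 at 0 h, 11.4, 9.36 and 9.45 at 2 h, and 22.2, 10.8 and 16.0 at 8 h. In DAOY it was 8.73, 9.23 and 6.35 at 0 h, 7.09, 8.79 and 8.94 at 2 h, and 13.1, 21.0 and 15.0 at 8 h. All samples at 8 h were above all samples at 0 h in both lines, with mean ratios of 2.28 in U87 mg and 2.02 in DAOY. The log2 difference was 1.25 ± 0.42 in U87 mg and 1.04 ± 0.32 in DAOY. Every 8 h sample was higher than every 0 h sample for 5.84% of all transcripts in U87 mg and for 9.21% in DAOY. At 2 h the U87 mg samples were also all above those at 0 h, as they were for 7.65% of all transcripts, while the DAOY samples overlapped with those at 0 h.

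IVNS1ABP-206, which keeps a different intron, was lower at 8 h in DAOY, where IVNS1ABP-207 was higher, although both are annotated as retained intron. In DAOY its TPM was 34.1, 28.5 and 27.7 at 0 h, 24.8, 23.0 and 19.7 at 2 h, and 6.86, 17.3 and 5.06 at 8 h. The 3 groups in DAOY did not overlap, each later one being lower. Of all transcripts in DAOY, 10.1% had every 8 h sample below every 0 h sample and 3.85% had every 2 h sample below them. The share with all 3 groups in order was not computed. One DAOY sample at 8 h lay far above the other two, and the log2 difference between 8 h and 0 h was -1.57 ± 0.58, or -2.34 without that sample. In U87 mg the TPM was 40.0, 18.6 and 26.0 at 0 h, 26.4, 8.45 and 19.4 at 2 h, and 14.9, 8.89 and 18.8 at 8 h. The groups in U87 mg overlapped, with a log2 difference of -0.94 ± 0.50 between 8 h and 0 h. Summed over the 4 transcripts annotated as retained intron, the TPM was 36.0 ± 12.4 at 0 h and 31.3 ± 9.60 at 8 h in U87 mg, and 38.9 ± 4.88 and 26.8 ± 10.9 in DAOY, so the annotated type did not separate the transcripts by direction.

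Added over all 9 transcripts, the gene differed less than its coding form. In U87 mg the gene sum was 121.3, 71.6 and 88.6 TPM at 0 h and 91.7, 53.8 and 65.8 TPM at 8 h, with overlapping groups and a log2 difference of -0.30 ± 0.35. In DAOY it was 110.7, 119.3 and 93.2 TPM at 0 h and 49.4, 75.7 and 53.4 TPM at 8 h, with all samples at 8 h lower and a log2 difference of -0.77 ± 0.25. Every 8 h sample was lower than every 0 h sample for 10.2% of gene sums in U87 mg and for 15% in DAOY. At 2 h the gene sum had a mean of 95.6 ± 20.1 TPM in U87 mg and 91.2 ± 5.45 TPM in DAOY and overlapped with 0 h in both lines.

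The makeup of the gene's signal differed between 0 h and 8 h in both lines. IVNS1ABP-202 held 32.0% ± 6.92 of the gene's TPM at 0 h and 12.3% ± 1.94 at 8 h in U87 mg, and 33.4% ± 3.07 and 6.03% ± 3.92 in DAOY. IVNS1ABP-207 held 7.86% ± 2.49 at 0 h and 22.8% ± 2.42 at 8 h in U87 mg, and 7.48% ± 0.58 and 27.4% ± 0.78 in DAOY. Neither share overlapped between 0 h and 8 h in either line. Among all transcripts that passed the filter in genes with more than 1 of them, every 8 h share was lower than every 0 h share for 5.85% in U87 mg and 6.39% in DAOY, and higher for 5.34% and 8.09%. The share of IVNS1ABP-204 was 28.4% ± 8.05 at 0 h and 40.9% ± 8.03 at 8 h in U87 mg, where the groups overlapped, and 28.9% ± 3.85 and 47.5% ± 5.53 in DAOY, where they did not. IVNS1ABP-202 and IVNS1ABP-204 differ by the extra exon and at both ends, so their split is not a measure of exon use alone. Of the TPM of these 2 forms, IVNS1ABP-202 made up 55.3, 40.5 and 63.7% at 0 h, 43.4, 42.4 and 43.2% at 2 h, and 19.0, 20.6 and 31.4% at 8 h in U87 mg. The corresponding shares in DAOY were 52.2, 49.5 and 59.2% at 0 h, 38.9, 54.1 and 35.3% at 2 h, and 18.5, 4.99 and 9.51% at 8 h. The coding form thus held between 40.5% and 63.7% of the pair in the samples at 0 h, and at most 31.4% in those at 8 h.

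**Figure D3:**
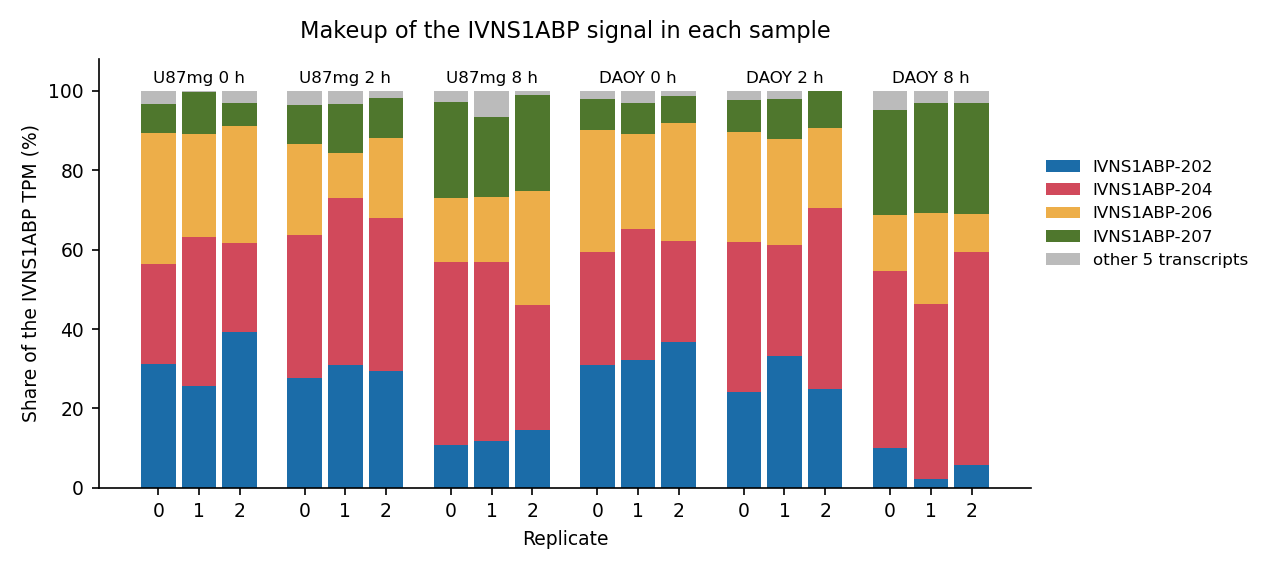
Share of the IVNS1ABP TPM (%) held by each of the 4 main transcripts and by the other 5 together, 1 bar per sample, with replicates 0 to 2 of each group side by side. The share of IVNS1ABP-202 at the foot of the bars is at most 14.5% in the 6 samples at 8 h and at least 24.1% in the other 12.

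Ordered by mean TPM, the groups of IVNS1ABP-202 ran DAOY 0 h, U87 mg 0 h, U87 mg 2 h, DAOY 2 h, U87 mg 8 h and DAOY 8 h. Of these neighbors, only DAOY 2 h and U87 mg 8 h, and then U87 mg 8 h and DAOY 8 h, did not overlap. For IVNS1ABP-207 the order was DAOY 8 h, U87 mg 8 h, U87 mg 2 h, DAOY 2 h, DAOY 0 h and U87 mg 0 h, and only U87 mg 2 h and DAOY 2 h did not overlap as neighbors. That gap was small, with a lowest U87 mg sample of 9.36 TPM and a highest DAOY sample of 8.94 TPM. No neighboring groups of IVNS1ABP-204, of IVNS1ABP-206 or of the gene sum were apart. The share of all transcripts with such groups apart was not computed, and the 8 h values of IVNS1ABP-202 took part in the choice of the gene.

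The 2 lines were compared at 2 h, in samples that took no part in the choice of the gene, with edgeR's quasi-likelihood F-test. Genes or transcripts were called where the p adjusted by Benjamini-Hochberg over the whole table was below 0.05 and the log2 fold change was 1 or more in either direction. The gene sum at 2 h differed by -0.22 ± 0.25 (log2, DAOY minus U87 mg) and was not called (95% interval -0.74 to 0.30, Benjamini-Hochberg adjusted p = 0.46 in edgeR), although 41.3% of all genes were. Of the 4 transcripts tested 0 were called, against 16.1% of all transcripts. IVNS1ABP-202 differed by -0.22 at 2 h (-0.93 to 0.50), IVNS1ABP-204 by -0.16 (-0.82 to 0.51), IVNS1ABP-206 by 0.25 (-0.80 to 1.31) and IVNS1ABP-207 by -0.33 (-0.99 to 0.33). The intervals leave room for differences of up to nearly 2-fold, and for IVNS1ABP-206 beyond it. The proportion each transcript takes of its gene, its usage, was tested with edgeR's diffSpliceDGE, which called 0 of the 4 against 0.862% of all transcripts at 2 h. The unadjusted p-values of the 4 transcripts in the 18-sample fit at 2 h, with edgeR's test, were between 0.30 and 0.63, so 0 passed 0.05.

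The 0 h samples of both lines took part in the choice of the gene, so their values are a description. The gene sum at 0 h differed by 0.16 ± 0.25 (log2, DAOY minus U87 mg). Its sign turned without the lowest U87 mg sample (replicate 1), to -0.017. IVNS1ABP-202 differed by 0.21 and IVNS1ABP-204 by 0.27. For background, at 0 h 41% of all genes and 15.7% of all transcripts were called between the lines, and 0.72% of transcripts in usage. The low number of usage calls over all transcripts stands beside a common coefficient of variation between replicates of 0.882 for transcripts and 0.228 for gene sums.

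A pair of lists of related genes were examined on gene sums, each line's 9 samples in 1 fit, with the same test and thresholds. The first held 47 other genes of the BTB and kelch family, adaptors that bring proteins to CUL3, of which 34 passed the filter in each line. At 8 h in DAOY 5 of the 34 were lower and 0 higher, against 3.07% of all genes called. An unadjusted p below 0.05 in edgeR's test was found for 14 of the 34, against 22.6% of all genes. The median log2 fold change of the list was 0.08, that of all genes -0.01. KBTBD7 fell most, from 10.4 ± 0.53 to 2.29 ± 0.83 CPM (counts scaled to the library's depth), by 2.16 on the log2 scale (adjusted p = 0.012, edgeR's quasi-likelihood test, Benjamini-Hochberg). IPP, an actin-binding kelch protein, fell by 1.37 on the log2 scale, from 21.3 ± 4.66 to 8.23 ± 1.83 CPM. KLHL12, an adaptor that acts on the SEC31 coat of secretory vesicles, fell by 1.15, from 67.7 ± 2.78 to 30.5 ± 3.44 CPM. KBTBD6, which forms a complex with KBTBD7, fell by 1.14, and KBTBD8 by 1.07. The count of 5 was 1 without DAOY 8 h replicate 1 or replicate 2, and 3 without DAOY 0 h replicate 0. Of the members not called, KBTBD11 had the largest value, 1.44 ± 0.42, at 3.45 CPM at 8 h. The oxidative stress sensor KEAP1 had a log2 fold change of -0.05 ± 0.29 and was not called.

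In U87 mg at 8 h 0 of the 34 family genes were called, against 0.602% of all genes. An unadjusted p below 0.05 in edgeR's test was found for 11 of the 34, against 15.7% of all genes. The largest values in size were 1.01 ± 0.25 for KLHL24, -0.76 ± 0.25 for KBTBD7, -0.76 ± 0.51 for KBTBD11 and 0.74 ± 0.19 for KLHL21. The values of the 5 genes called in DAOY ranged in U87 mg from -0.76 for KBTBD7 to 0.35 for KBTBD8. At 2 h 0 family genes were called in either line, where 0% of all genes were called, with 2 of 34 at an unadjusted p below 0.05 by edgeR in U87 mg and 4 of 34 in DAOY, against 8.67% and 2.7% of all genes.

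**Figure D4:**
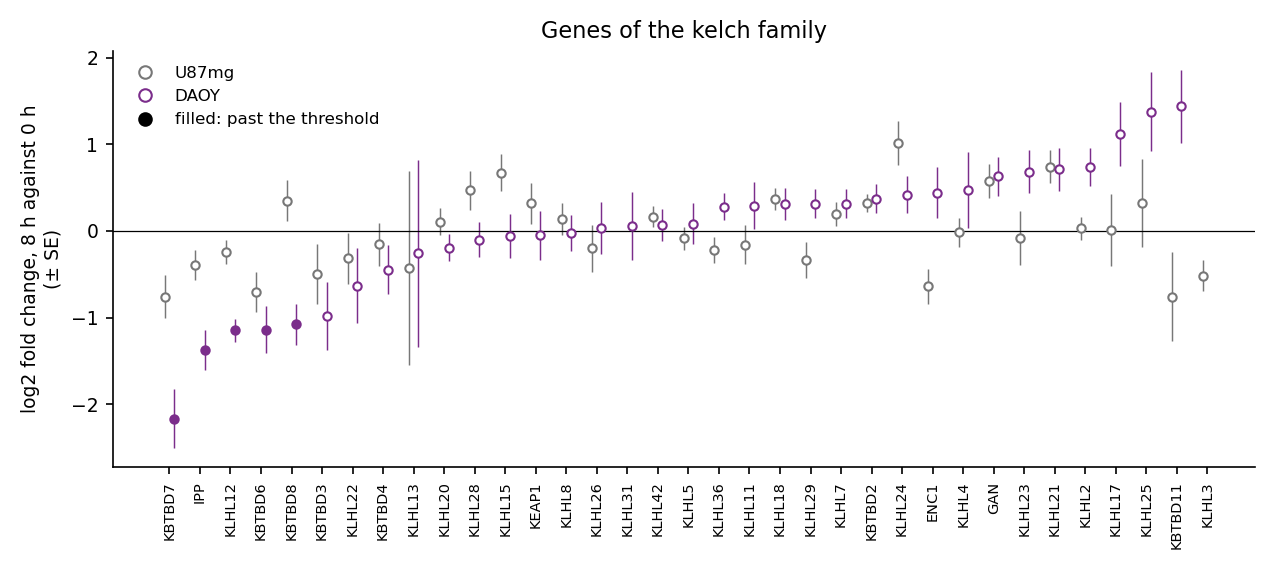
Log2 fold change of the gene sum, 8 h against 0 h, with its SE, for the genes of the kelch family that passed the filter in U87 mg (gray) or DAOY (purple), in order of the DAOY value. Filled points passed the threshold: 5 genes in DAOY, all lower, and 0 in U87 mg.

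The second list held 23 genes, of which KLHL20 is also on the first list. Some encode proteins known to work with or next to NS1-BP, among them CUL3 and its partners and the splicing and export factors HNRNPK, SRSF2, SON, SRRM2, ALYREF and NXF1. Others were listed as genes of the aryl hydrocarbon receptor response. At 8 h 0 of 21 tested in U87 mg and 0 of 23 in DAOY were called, against 0.602% and 3.07% of all genes. Their median log2 fold change was 0.14 in U87 mg and 0.24 in DAOY, against -0.003 and -0.013 for all genes. Of the listed genes 5 and 7 had an unadjusted p below 0.05 in edgeR's test, against 15.7% and 22.6% of all genes. NXF1, the main export receptor of messenger RNA, stood at 43.3 ± 5.75 CPM at 0 h and 84.7 ± 18.7 CPM at 8 h in U87 mg, a log2 difference of 0.97 ± 0.18 that passed the adjusted p (0.030, edgeR with Benjamini-Hochberg) and missed the minimum fold. In DAOY its log2 difference was 0.73 ± 0.20 (adjusted p = 0.057, same test). SRRM2, a scaffold of nuclear speckles, was 0.55 ± 0.14 in DAOY, also past the adjusted p (0.048, edgeR) and below the minimum fold. TIPARP, a target of the aryl hydrocarbon receptor, had the largest value in U87 mg, 1.17 ± 0.31 on the log2 scale, with CPM of 351.3 ± 194.1 at 8 h, and was not called. CUL3 itself had a log2 difference of 0.36 ± 0.12 in U87 mg and 0.02 ± 0.16 in DAOY. At 2 h 0 genes of this list were called in either line, with 2 in each at an unadjusted p below 0.05 by edgeR, against 8.67% of all genes in U87 mg and 2.7% in DAOY.

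The nearest protein coding genes were examined for values at the same locus. SWT1, an endonuclease acting on nuclear RNA, ends 4622 nt from IVNS1ABP and had a log2 difference at 8 h of 0.53 ± 0.25 in U87 mg and 0.09 ± 0.20 in DAOY. TRMT1L, a homolog of a transfer RNA methyltransferase, fell in DAOY by 1.26 ± 0.17 on the log2 scale, from 57.7 ± 11.2 to 24.1 ± 1.24 CPM (adjusted p = 0.0086, edgeR's quasi-likelihood test, Benjamini-Hochberg). In U87 mg its value was -0.41 ± 0.16 and it was not called. On the other side, HMCN1 was at 0.02 ± 0.36 in DAOY and 0.22 ± 0.24 in U87 mg, and PRG4 passed the filter in DAOY alone, at -0.67 ± 0.52.

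The genes whose pattern was most like that of the gene sum were sought by the correlation of log2(TPM + 1) over the 18 samples, with each line's mean taken out, among 10919 genes with a mean TPM of at least 5. The highest Pearson coefficients were those of MORN4 (0.87), TTLL1 (0.86), C14orf28 (0.85), RNF170 (0.83) and TMEM35B (0.83), and the lowest those of AJUBA (-0.89), USP31 (-0.88) and ANKLE2 (-0.86). With Spearman's coefficient 0 of these 5 were among the highest 5, so the order of likeness was loose. For IVNS1ABP-204, the transcript with the highest mean over all 18 samples, the most similar of 19849 transcripts was one of VAV3 (0.81). For IVNS1ABP-202, added after its values were seen, it was one of TFB1M (0.97). These are descriptions over samples that share a library preparation and fall into the same 6 groups, with no test.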

How the data were processed

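RNA of 18 samples was sequenced as single-end reads from a stranded, polyA-selected library. The authors deposited, per transcript and sample, an estimated count and a TPM value from Kallisto 0.43.0 on GENCODE 24 (GRCh38.p5), with R 3.2.1 and Sleuth 0.28.1. Whether the strand option was used is not given in the sources used here. The columns that hold the authors' own p-values, q-values and fold changes were not used. Per the paper's methods, the 3 biological replicates of best quality were kept per group; whether their cultures were independent is not stated further, so p-values measure the spread between these samples.

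Estimated counts were rounded to whole numbers, summed per gene where needed, filtered with filterByExpr, scaled by TMM and fitted with glmQLFit (edgeR 4.0.16, R 4.3.3). Lines were compared in 1 fit of all 18 samples, times within a line in fits of 9. Calls needed a Benjamini-Hochberg FDR under 0.05 and a log2 fold change of 1 or more in size (usage: the FDR alone). Identifiers were matched to GENCODE 29 (99.2% of 145326 transcripts, 36581 genes), and the lengths implied by counts and TPM equalled the GENCODE 29 lengths for 8 of the 9 members, the last having too few counts. TPM deposited by the authors carry no count of reads, so estimated counts are given as depth. Words of 31 bases were counted, taken to be Kallisto's usual length. The scripts were tested on simulated data.

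Alternatives were DESeq2 1.42.0, limma 3.58.1 on log2(TPM + 1) and log2(TPM + 0.1), library totals, no filter, a minimum of 10 counts in each sample, only the 6 samples compared, all 18 samples, sums by the table's name column, the replicate number as a block, and each replicate left out. The members, lists, tests and alternatives were chosen with earlier results of these data known. Named genes were those called on each list, up to 5 with the largest change, 2 neighbors per side, and, for the gene sum, the 5 most and 3 least alike; SRRM2, NXF1, CUL3, KEAP1 and single members beyond these were named after their values were seen. Same-numbered replicates did not pair (correlations of deviations from group means between -0.18 and 0.40, above 0.1 throughout in 0 of 6 comparisons).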

Additional observations from a re-analysis of the deposited data

How the results depend on the processing

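The line comparison of IVNS1ABP kept its result under all alternatives run: at 2 h the gene sum lay between -0.38 and -0.05 and was called under none, and 0 transcripts were called or differed in usage, the replicate block included. At 0 h, where the difference is a description, the gene sum was -0.017 without U87 mg 0 h replicate 1, and between 0.041 and 0.41 otherwise. The number of family genes called in DAOY at 8 h was 5, 3 with limma on log2(TPM + 1), 3 with the replicate block, and 1 to 4 with 1 sample left out. It was 1 without DAOY 8 h replicate 1 or replicate 2 and 3 without DAOY 0 h replicate 0. In U87 mg it was 0, and 0 to 1 with 1 sample left out, being 1 without U87 mg 0 h replicate 0. The number of genes of the second list called was 0 in both lines in the main test. In DAOY it was 1 with DESeq2, 2 with no filter, 1 with the adjusted p alone, and 0 to 1 with 1 sample left out. In U87 mg it was 2 with no filter, 1 with the adjusted p alone, and 0 to 3 with 1 sample left out, being 3 without U87 mg 8 h replicate 0. The cause was not tested. The replicate block changed no other call.

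Descriptions at 8 h held their direction and stayed within 1 SD in every alternative for IVNS1ABP-202 (-2.05 to -1.56 in U87 mg and -3.88 to -3.18 in DAOY), for IVNS1ABP-207 (0.91 to 1.51 and 0.76 to 1.19) and for the gene sum (-0.58 to -0.07 and -0.97 to -0.63). That of IVNS1ABP-204 changed sign in both lines with 1 sample left out (-0.20 to 0.40 and -0.34 to 0.02). The adjusted p alone and all alternatives for single transcripts were chosen after seeing the data. The share of IVNS1ABP-204 at 8 h minus 0 h was 12.6 points in U87 mg and 18.6 in DAOY by TPM, and 13.7 and 19.6 by counts.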
